A study of Mus musculus with 72 samples.

Results

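The genes described here are 35 activity-induced early and secondary response genes that lie outside the Fos, Egr, Nr4a, Arc and Dusp groups. A gene was a member if a probe set of the array, a group of short DNA probes that reports 1 transcript, was annotated to its symbol and to no other. All 35 symbols were matched, out of 18820 genes with such a probe set. The deposited table holds 35556 probe sets, of which 21218 carry exactly 1 symbol. Only Kdm6b had 2 such probe sets, and the one with the higher mean over all arrays was used.

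The arrays measured hippocampal RNA of 72 male C57BL/6J mice, 2 months old, with 1 array per mouse and 9 mice in each of 8 groups. All mice were housed singly and handled on 3 days before training. Contextual fear conditioning pairs a chamber with a foot shock, so that the mouse later freezes in that chamber. The shock lasted 2 s at 1.5 mA and training began at ZT3, that is 3 h after lights on. Trained mice are named by the time from training to dissection, FC30 for 30 min, and FC4, FC12 and FC24 for 4 h, 12 h and 24 h. Retrieval mice (RT30) were trained, spent 5 min in the same chamber 24 h later and were dissected 30 min after that test. Mice that were handled but never placed in the chamber and never shocked gave the time of day controls CC30, CC4 and CC12. An effect of the shock and an effect of the new chamber cannot be told apart in this design. FC30, RT30 and FC24 mice were compared with the same 9 CC30 mice, so these comparisons share their control. FC12 and CC12 mice were dissected in the dark phase, and all other groups in the light phase.

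Activity-induced genes are transcribed within minutes of neuronal firing, when calcium entry activates transcription factors such as CREB and SRF that are already present in the nucleus. The first wave holds transcription factors and also effectors that act at synapses, in signalling and in RNA or protein turnover. A later wave holds secreted and structural proteins. Many of the genes are also induced outside neurons, and some, such as Bhlhe40 and Bhlhe41, belong to the circadian clock. CREB binds the cAMP response element (CRE), SRF binds the CArG box, and the clock proteins CLOCK and BMAL1 bind the E-box.

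RefSeq promoter windows of build GRCm38.p6, which run from 250 bases before to 50 bases after a start site, were matched for 25 of the 35 genes, in 34 windows. No window was used for Vgf, Nptx2, Ier2, Trib1, Bhlhe40, Spry4, Gem, Kdm6b, Pvr and Nrn1. On both strands, the full CRE TGACGTCA was found in 3 of the 34 windows, those of Errfi1, Maff and Plk2 (8.82%, against 1.79% of all 32851 windows). The CRE core TGACG, which every full CRE contains, was found in 16 windows of 12 genes (47.1%, against 20.8%). The E-box CACGTG was found in 5 windows, of Bhlhe41, Maff, Midn, Pim1 and Ptgs2 (14.7%, against 7.15%). A CArG box was found in the windows of Rnd3, Srf and Zfp36 (8.82%, against 1.63%), and an NF-kB site in those of Ier3 and Maff (5.88%, against 8.46%). Windows of 1 gene can overlap, and these shares are descriptions. A match of letters is not evidence of binding.

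The first 280 bases of 5 windows are printed 5′ to 3′ on the strand of the gene, with CRE, CRE core and E-box letters in capitals. The RefSeq start lies 30 bases before the end of each. Csrnp1 (chr9:119983750-119984029, strand -; the window with most matches of its 4) is shown for its level at 30 min. Bhlhe41 (chr6:145865391-145865670, strand -), Errfi1 (chr4:150854820-150855099, strand +; the second of 2 windows) and Ptgs2 (chr1:150099781-150100060, strand +) are shown because they differed in every comparison of dark with light mice. Plk2 (chr13:110394794-110395073, strand +) is shown as a gene with a full CRE that did not pass the test in any comparison.
Csrnp1: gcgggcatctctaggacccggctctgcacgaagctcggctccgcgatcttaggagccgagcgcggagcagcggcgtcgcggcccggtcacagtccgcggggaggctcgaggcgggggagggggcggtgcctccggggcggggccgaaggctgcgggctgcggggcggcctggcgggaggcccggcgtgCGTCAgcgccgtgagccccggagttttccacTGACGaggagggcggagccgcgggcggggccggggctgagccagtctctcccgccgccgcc
Bhlhe41: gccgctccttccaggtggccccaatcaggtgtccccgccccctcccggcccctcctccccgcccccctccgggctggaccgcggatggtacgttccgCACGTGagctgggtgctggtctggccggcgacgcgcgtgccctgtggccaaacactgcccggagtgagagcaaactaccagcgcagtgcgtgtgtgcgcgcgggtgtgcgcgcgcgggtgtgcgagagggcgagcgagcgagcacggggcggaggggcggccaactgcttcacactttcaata
Errfi1: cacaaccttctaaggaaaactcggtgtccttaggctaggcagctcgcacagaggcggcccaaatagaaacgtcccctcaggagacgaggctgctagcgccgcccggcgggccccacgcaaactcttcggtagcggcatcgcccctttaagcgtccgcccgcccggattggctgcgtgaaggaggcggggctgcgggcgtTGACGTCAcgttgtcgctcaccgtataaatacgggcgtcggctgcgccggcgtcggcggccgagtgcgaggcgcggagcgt
Ptgs2: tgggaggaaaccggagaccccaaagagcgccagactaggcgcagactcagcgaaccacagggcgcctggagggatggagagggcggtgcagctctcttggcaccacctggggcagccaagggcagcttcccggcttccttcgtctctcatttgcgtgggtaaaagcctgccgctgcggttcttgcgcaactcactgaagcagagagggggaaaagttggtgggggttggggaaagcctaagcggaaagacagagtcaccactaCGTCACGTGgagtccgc
Plk2: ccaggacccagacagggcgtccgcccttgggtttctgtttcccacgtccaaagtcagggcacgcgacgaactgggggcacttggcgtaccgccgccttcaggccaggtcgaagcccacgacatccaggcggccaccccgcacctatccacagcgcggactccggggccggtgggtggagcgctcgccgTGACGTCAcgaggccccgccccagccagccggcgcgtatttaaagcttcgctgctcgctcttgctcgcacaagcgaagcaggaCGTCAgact
The Csrnp1 window holds a CRE core 31 bases before the start and another, on the other strand, beginning 62 bases before it. The Bhlhe41 E-box begins 153 bases before the start. The CRE begins 51 bases before the start in Errfi1 and 62 bases before it in Plk2. In Ptgs2 a CRE core on the other strand and an E-box overlap, beginning at bases 14 and 17 counted from the start. All these positions are counted from the RefSeq start of the window, and other start sites were not examined.

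Levels below are log2 signals. The authors summarised the arrays with RMA, which corrects background and equalises the distribution of signals between arrays, and the first principal component (PC1) over all arrays was then subtracted. This moved a value of the 35 genes by 0.005 in the median and by 0.174 at most. Array medians lay between 5.82 and 5.88 on the log2 scale. Differences are log2 fold changes with their standard errors (SE), tested two-sided with limma on the 18 arrays of 2 groups with p-values adjusted over all 35556 probe sets by Benjamini-Hochberg. A difference is called where this adjusted p is under 0.1. Signals of different probe sets are not compared with each other. In whole hippocampus, a change in RNA per cell and a change in the number of cells of a type cannot be told apart. Among 40 cell type markers that were matched, the mean of the 6 neuronal ones lay between 11.71 and 11.78 in CC12 mice and between 11.73 and 11.81 in CC30 mice, and markers of dentate granule and pyramidal cells were measured in every group.

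At 30 min after training, 2 of the 35 genes rose, Csrnp1 and Pvr, and none fell. Over all probe sets, 0.186% were called higher in FC30 mice. The 35 genes had a median log2 fold change of 0.07, against -0.002 for all probe sets, and 28 of them were positive. An unadjusted p under 0.05 was seen for 8 of them, 22.9%, all higher in FC30 mice, against 6.76% of all probe sets. Beside them, a list of 31 other activity-induced genes, of the Fos, Egr, Nr4a and Dusp families with Arc, Npas4 and others, had 18 genes called higher and a median of 0.28. Its largest value was 1.27 for Egr2, while the 35 genes reached 0.30. The 31 genes, like the 35, were chosen with earlier results of these data known, so these counts only describe them. None of the 40 cell type markers was called between FC30 and CC30 mice. Cldn5 of endothelium was at -0.20 (adjusted p = 0.391) and Ttr of the choroid plexus at 1.56 (adjusted p = 0.55). Slco1c1, also of endothelium, was at 0.12. The list medians were -0.05 for endothelium and 0.29 for choroid plexus. The mean of the 4 choroid plexus markers, a sign of tissue carried along in dissection, ran from 6.22 through a median of 6.84 to 7.63 in FC30 mice and from 5.95 through 6.24 to 7.49 in CC30 mice, and its part in the 30 min values was not tested.

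Pvr encodes the poliovirus receptor, an adhesion protein of the nectin family at the cell surface. Its signal ran from 6.97 through a median of 7.07 to 7.14 in FC30 mice, and from 6.68 through 6.74 to 6.93 in CC30 mice. After removal of PC1, all 9 FC30 mice lay above all 9 CC30 mice. In the RMA values before that step the groups overlapped, with a lowest FC30 value of 6.84 and a highest CC30 value of 6.94. The log2 fold change was 0.30 (SE 0.034, 95% interval 0.23 to 0.37, a 1.23-fold rise), with an adjusted p of 0.000125. It was called in every one of the 12 alternative settings. FC24 mice had a lowest value of 6.67, a median of 6.86 and a highest of 6.95. They did not overlap with FC30 mice after removal of PC1, but did before it (highest FC24 value 6.96). Pvr in FC30 mice was 0.23 higher than in FC24 mice (SE 0.041, adjusted p = 0.0362). That call ended when no component was removed (adjusted p = 0.158) and with the replicate number as a block (adjusted p = 0.317).

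Csrnp1 encodes a nuclear protein that activates transcription. Its lowest, median and highest values were 6.21, 6.42 and 6.58 in FC30 mice, against 6.01, 6.07 and 6.41 in CC30 mice. The groups overlapped, with 5 of 9 FC30 mice above every CC30 mouse and 9 of 9 above the CC30 mean. The log2 fold change was 0.28 (SE 0.057, 95% interval 0.16 to 0.40, 1.22-fold), with an adjusted p of 0.0545. With an unmoderated equal variance test in place of limma, the adjusted p was 0.104, and with the replicate number as a block it was 0.225. Against FC24 mice, at 6.04, 6.15 and 6.25, Csrnp1 in FC30 mice was 0.26 higher (SE 0.047, adjusted p = 0.0362).

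**Figure D1:**
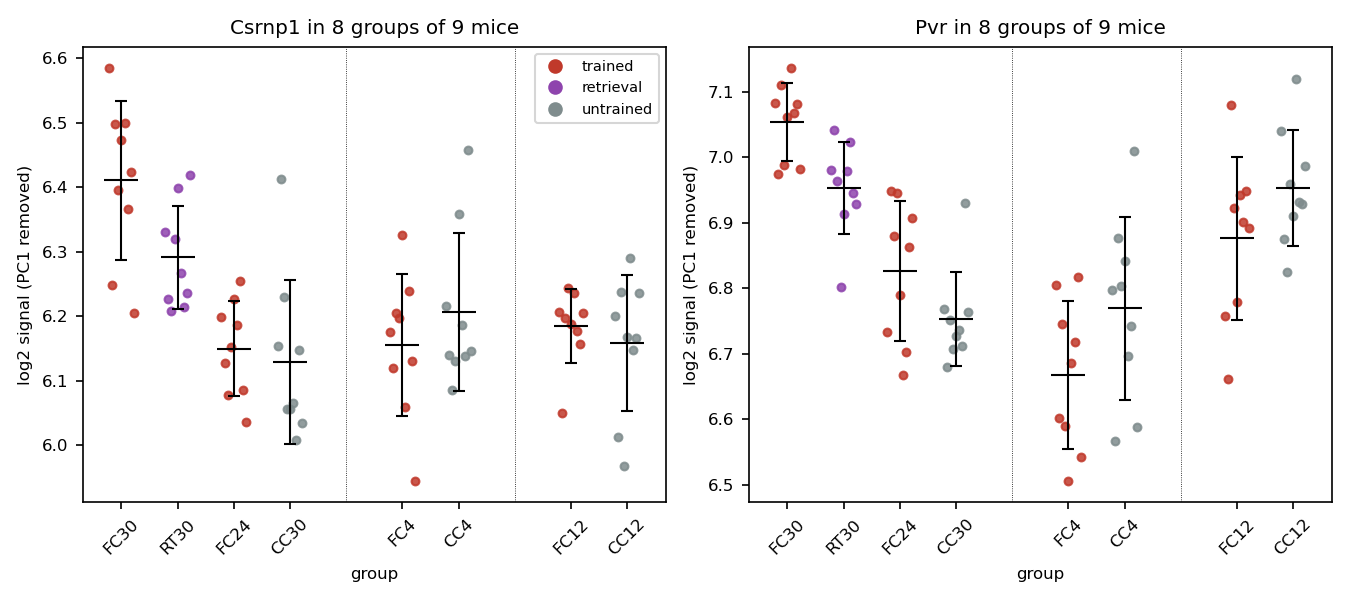
Log2 signal after removal of PC1 (y axis) of Csrnp1 (left) and Pvr (right) in each of the 9 mice of 8 groups (x axis); red points are trained, purple retrieval and grey untrained mice, and black bars are the mean ± SD. The FC30 points of Pvr, 6.97 to 7.14, lie above all CC30 points, 6.68 to 6.93, and the FC4 points, 6.50 to 6.82, overlap the CC4 points, 6.57 to 7.01.

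The other genes with an unadjusted p under 0.05 at FC30 were Homer1, Errfi1, Plk3, Fbxo33, Peli1 and Kdm6b, none of which passed the adjusted threshold. Errfi1, an inhibitor of the EGF receptor, had values of 9.38, 9.53 and 9.70 (lowest, median, highest) in FC30 mice, against 9.26, 9.38 and 9.58 in CC30 mice. Its difference was 0.16 (SE 0.044, adjusted p = 0.351), and in a single fit to all 8 groups it was called (adjusted p = 0.0493). Homer1, a scaffold of the postsynaptic density, ran from 8.80 through 8.88 to 8.95 in FC30 mice and from 8.67 through 8.78 to 8.88 in CC30 mice, a difference of 0.10 (SE 0.030, adjusted p = 0.399). Homer1 has 1 probe set here, so its short activity-induced transcript is not measured apart from the long ones. Kdm6b, a demethylase of histone H3, was 0.11 higher in FC30 mice (SE 0.039, adjusted p = 0.584), and Plk3, a polo-like kinase, 0.16 higher (SE 0.067, adjusted p = 0.646).

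Grouped by role, the 10 regulators of transcription and chromatin had 8 positive values at FC30 and a median of 0.04, and Csrnp1 was the 1 that rose. The 11 signalling kinases and feedback regulators had 9 positive values and a median of 0.07, and none was called. The 8 secreted, synaptic and surface proteins split into 5 positive and 3 negative values, from -0.10 for Inhba, a subunit of activin, to 0.30 for Pvr. The 6 genes of RNA and protein turnover and survival, such as the mRNA decay factor Zfp36 and the midnolin gene Midn, were all positive, between 0.05 and 0.09, and none was called. Several well-known effector genes of neuronal activity had values near 0 or below it. Nptx2, a pentraxin that clusters glutamate receptors, had a difference of 0.02 (95% interval -0.06 to 0.10). Vgf, a precursor of neuropeptides, was at -0.08 (interval -0.17 to 0.02), Nrn1, the membrane-anchored neuritin, at -0.01 (interval -0.10 to 0.08) and Ptgs2, the inducible cyclooxygenase, at 0.01 (interval -0.12 to 0.14). Plk2, whose promoter window holds the full CRE printed above, was at 0.04 (interval -0.05 to 0.13).

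After retrieval, 1 of the 35 genes rose, Pvr, beside 0.186% of all probe sets called higher. Pvr was at 6.80, 6.96 and 7.04 in RT30 mice, against 6.68, 6.74 and 6.93 in CC30 mice, with 6 of 9 RT30 mice above every CC30 mouse. The difference was 0.20 (SE 0.036, 95% interval 0.13 to 0.27, adjusted p = 0.0214). With the replicate number as a block it was not called (adjusted p = 0.141). Gem, a small GTPase that restrains calcium channels, had a difference as large, 0.20 (SE 0.057), with values of 4.20, 4.40 and 4.52 in RT30 mice and 3.98, 4.17 and 4.41 in CC30 mice, and did not pass (adjusted p = 0.284). Csrnp1 was 0.16 higher in RT30 mice (SE 0.050, adjusted p = 0.387), Errfi1 0.14 higher (SE 0.040, adjusted p = 0.283) and Mcl1, an inhibitor of cell death, 0.12 higher (SE 0.036, adjusted p = 0.336). Errfi1 was called in the single fit to all 8 groups (adjusted p = 0.0964). The median of the 35 genes was 0.035, with 27 positive. Of the 31 other activity-induced genes, a list chosen with earlier results of these data known, 18 were called higher. Cldn5, a marker of endothelium, was lower in RT30 mice (-0.20), the only 1 of 40 markers called, and its part in these values was not tested. The median log2 fold change of the 4 endothelial markers was -0.03.

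Set directly against each other, RT30 and FC30 mice differed in none of the 35 genes past the threshold, and in no probe set (0% called, with 3.9% at an unadjusted p under 0.05). Pvr differed by -0.10 (95% interval -0.17 to -0.03) and Csrnp1 by -0.12 (interval -0.22 to -0.02), and neither passed the adjusted test (adjusted p = 1.00 for each). RT30 mice could also be set against FC24 mice, which had the same training and no test. No gene of the 35 was called there, beside 0.121% of all probe sets called higher, but 12 of 35 genes, 34.3%, had an unadjusted p under 0.05, 10 of them higher in RT30 mice, against 6.2% of all probe sets. The largest differences were 0.22 for Gem (SE 0.059, adjusted p = 0.34), 0.15 for Errfi1 (SE 0.035, adjusted p = 0.152) and 0.14 each for Csrnp1 and Mcl1. Pvr, called in RT30 against CC30 mice, was not called against FC24 mice. Its means were 6.95 in RT30 and 6.83 in FC24 mice, with 5 of 9 RT30 mice above every FC24 mouse. Errfi1 was called in this comparison under 5 of the 12 alternatives. Of the 40 markers, Cldn5 was called here too, lower in RT30 than in FC24 mice (-0.18), and its part was not tested. The median of the 4 endothelial markers was -0.01 here. FC30 against FC24 mice had 2 genes called, Csrnp1 and Pvr, where 0.118% of all probe sets were called higher, and 14 of 35 genes, 40%, had an unadjusted p under 0.05. FC30 against CC30 and RT30 against FC24 use no array in common. Over the 35 genes, 28 had the same sign in both, and the fold changes had a Pearson r of 0.65. These values describe genes that are not independent of each other, and both comparisons share the RMA and PC1 steps. The share of all probe sets with the same sign was not computed for this pair. The count therefore cannot be read as particular to the 35 genes.

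At 24 h after training no gene of the 35 was called between FC24 and CC30 mice, and 0% of probe sets were called. The values lay between -0.07 and 0.07, with a median of -0.013, 14 positive and 1 at an unadjusted p under 0.05 (Plk2, -0.06). Csrnp1 was 0.02 higher in FC24 mice (95% interval -0.08 to 0.12) and Pvr 0.07 higher (interval -0.02 to 0.16).

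The 30 min rises were not called at 4 h. No gene of the 35 was called between FC4 and CC4 mice, where 0% of probe sets were called, and none of the 12 alternatives called one of the 35 there. Pvr was at 6.50, 6.69 and 6.82 in FC4 mice, against 6.57, 6.80 and 7.01 in CC4 mice, a difference of -0.10 (SE 0.059, 95% interval -0.22 to 0.02). Csrnp1 was at 5.94, 6.17 and 6.33 in FC4 mice, against 6.08, 6.15 and 6.46 in CC4 mice, a difference of -0.05 (interval -0.16 to 0.06). The intervals of both genes at 4 h lie below those at 30 min. The difference between the 2 effects was itself tested with an interaction term. For Pvr the 30 min effect exceeded the 4 h effect by 0.40 (SE 0.068, adjusted p = 0.00459, with 0.0422% of all probe sets called in this direction) and the 12 h effect by 0.38 (SE 0.060, adjusted p = 0.00177, with 0.0675% called). For Csrnp1 the first difference was 0.33 (SE 0.080, adjusted p = 0.183; 0.0213 in the single fit to all 8 groups) and the second 0.26 (SE 0.071, adjusted p = 0.425), so for Csrnp1 a difference between the 30 min and 4 h effects was called only in the single fit.

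The values nearest to a rise at 4 h belonged to other genes. Nptx2 was at 7.45, 7.60 and 7.79 in FC4 mice, against 7.32, 7.46 and 7.67 in CC4 mice, a difference of 0.15 (SE 0.049) with 8 of 9 FC4 mice above the CC4 mean. Spry4, an inhibitor of receptor tyrosine kinase signalling, differed by 0.13 (SE 0.055) and Maff, a small MAF transcription factor, by 0.11 (SE 0.047). All 3 had an adjusted p of 0.922. These 3 of 35 genes, 8.57%, compare with 5.35% of all probe sets at an unadjusted p under 0.05, and the median of the 35 was 0.021, with 26 positive. Of the 31 other activity-induced genes, 0 were called at 4 h, and Arc had the largest value, 0.21. At 12 h no gene of the 35 was called between FC12 and CC12 mice (0% of probe sets), and 2 had an unadjusted p under 0.05. Nptx2 was 0.14 higher in FC12 mice (SE 0.057) and Ptgs2 0.11 higher (SE 0.047), with an adjusted p of 1.00 for each.

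**Figure D2:**
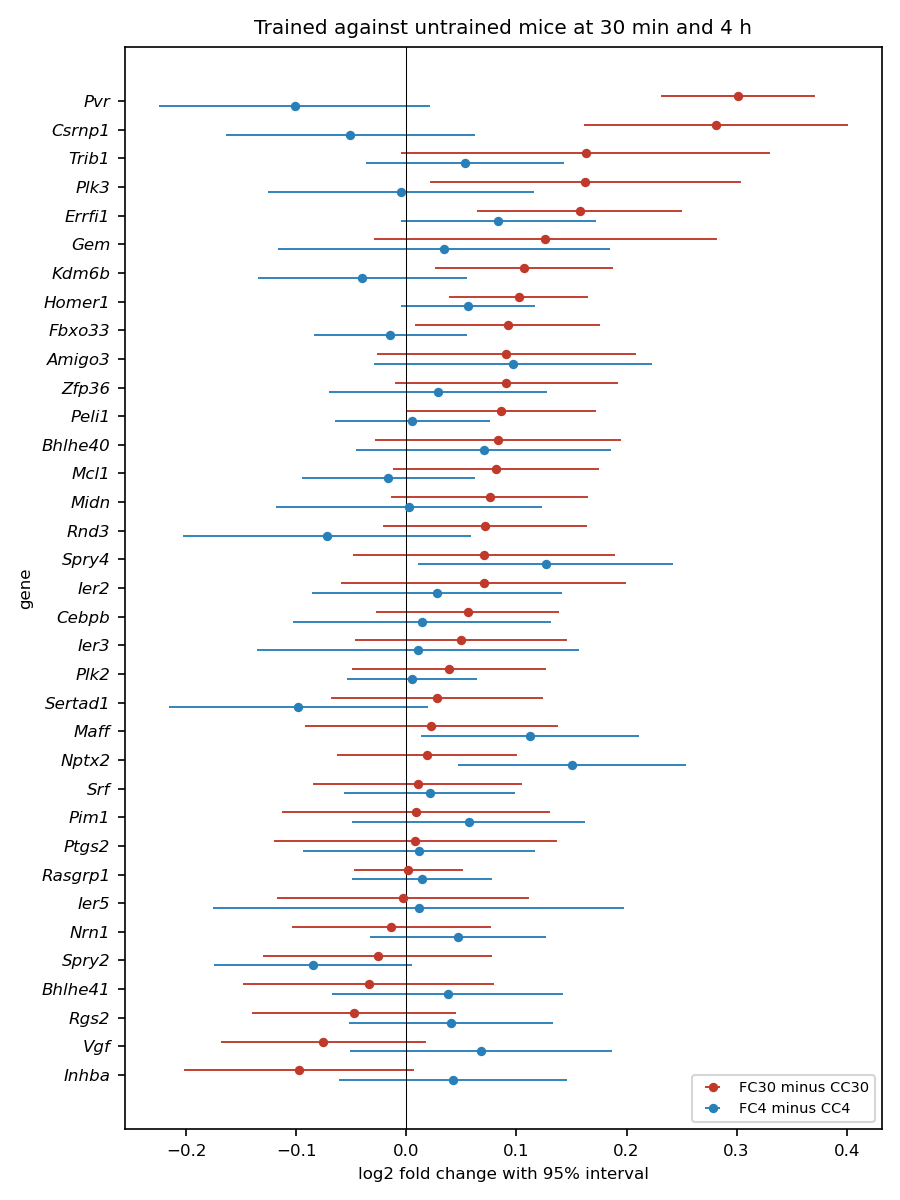
Log2 fold change with its 95% interval (x axis) for each of the 35 genes (y axis, ordered by the 30 min value), red for FC30 against CC30 mice and blue for FC4 against CC4 mice, 9 mice per group. Pvr (0.30) and Csrnp1 (0.28) lead at 30 min, and their 4 h values are -0.10 and -0.05.

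More of the 35 genes were called between dark and light mice than between trained and untrained mice, as was the case over all probe sets. Over the 4 comparisons of dark with light mice, 12 genes were called at least once, 3 in all 4 (Bhlhe41, Errfi1 and Ptgs2), 3 in 3 of them (Nptx2, Pvr and Mcl1) and 6 in 1 (Ier3, Bhlhe40, Spry2, Spry4, Rnd3 and Srf). Of all probe sets, 9.63% were called in at least 1 of the 4 and 0.726% in all 4 in the same direction. With only the 21218 probe sets of 1 symbol tested, 1242 were called in CC12 against CC30 and 1759 in CC12 against CC4 mice. With all 35556 tested, these counts were 1243 and 1782. The shares over all probe sets in these 2 comparisons are thus lower than among probe sets of 1 symbol, the kind used for the 35 genes. In CC12 against CC30 mice 5 genes rose (Bhlhe41, Pvr, Ier3, Errfi1 and Mcl1), with 2.05% of all probe sets higher, and 2 fell (Ptgs2 and Nptx2), with 1.44% lower. In CC12 against CC4 mice 6 rose (Spry4, Bhlhe41, Errfi1, Pvr, Srf and Mcl1), with 2.54% higher, and 3 fell (Ptgs2, Nptx2 and Spry2), with 2.47% lower. In trained mice, FC12 against FC24 had 4 genes higher (Bhlhe41, Errfi1, Bhlhe40 and Mcl1; 2.11% of all probe sets) and 1 lower (Ptgs2; 1.08%). FC12 against FC4 had 4 higher (Pvr, Bhlhe41, Rnd3 and Errfi1; 2.51%) and 2 lower (Nptx2 and Ptgs2; 1.71%). Between the light phase groups CC4 and CC30 no gene of the 35 was called, beside 0.0731% of all probe sets. In trained mice the dark phase also differs from the light phase in the time since training, which cannot be told apart.

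**Figure D3:**
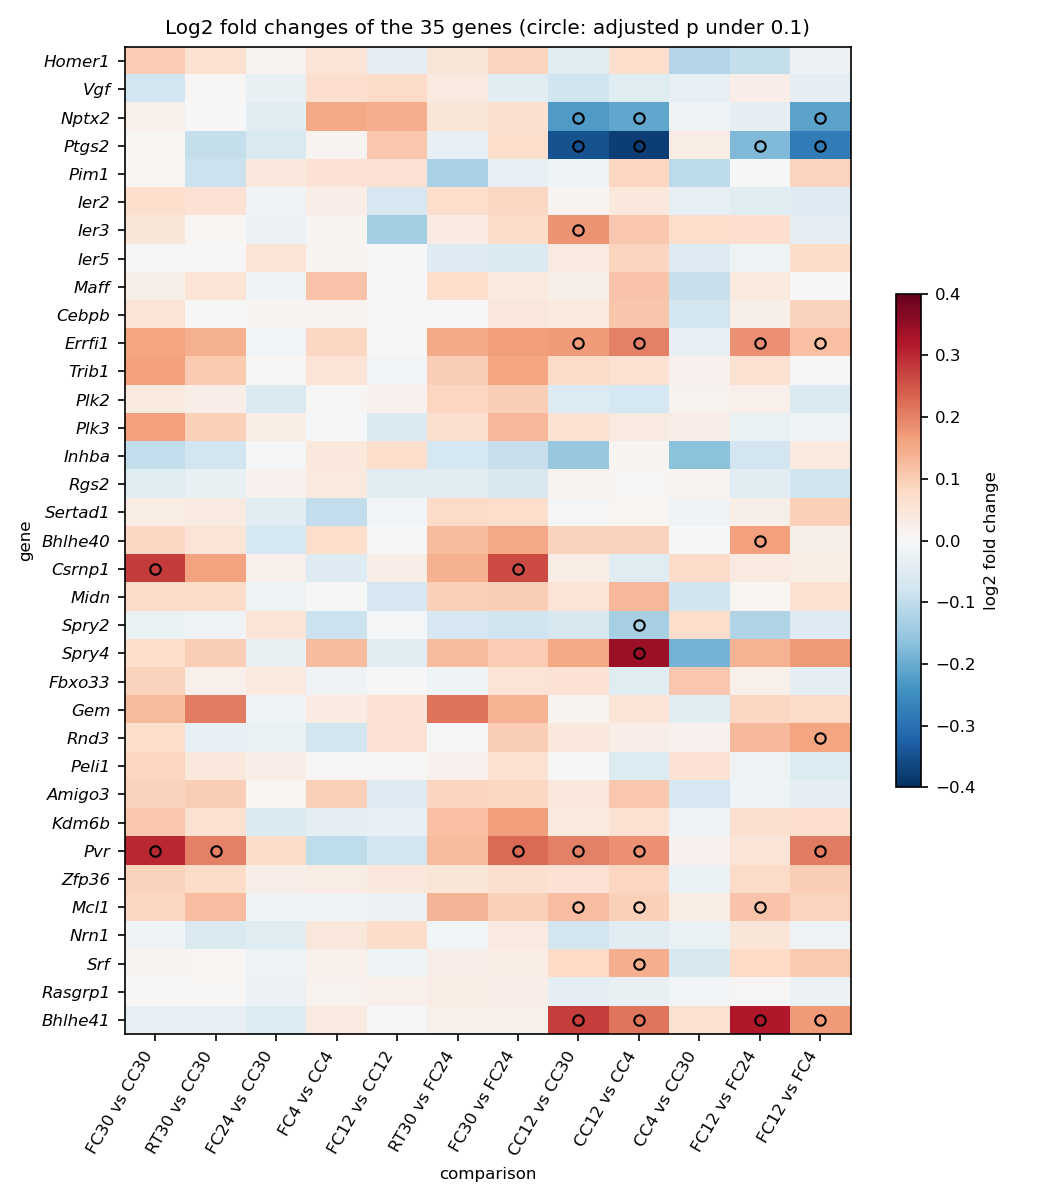
Log2 fold change (colour, red higher and blue lower in the group named first) of each of the 35 genes (rows) in 12 comparisons (columns); circles mark an adjusted p under 0.1 with limma. Circles are few in the 30 min columns (Csrnp1 and Pvr), absent at 4 h and 12 h after training, and cover 12 genes in the 4 columns of dark against light.

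Bhlhe41 (DEC2), a basic helix-loop-helix repressor of the circadian clock, was higher in the dark in both untrained and trained mice. Its lowest, median and highest values were 7.79, 7.88 and 8.02 in CC12 mice, against 7.43, 7.58 and 7.93 in CC30 mice and 7.57, 7.65 and 7.92 in CC4 mice. In trained mice they were 7.80, 7.89 and 7.98 at FC12, against 7.39, 7.58 and 7.75 at FC24 and 7.51, 7.73 and 7.85 at FC4. All 9 FC12 mice lay above all FC24 mice, while a few FC4, CC30 and CC4 mice reached into the dark range. The differences were 0.28 for CC12 against CC30 (SE 0.054, adjusted p = 0.00953), 0.21 for CC12 against CC4 (SE 0.045, adjusted p = 0.0107), 0.32 for FC12 against FC24 (SE 0.042, 1.25-fold, adjusted p = 0.000350) and 0.17 for FC12 against FC4 (SE 0.039, adjusted p = 0.0269). Training left no called difference: FC12 minus CC12 was -0.01 (95% interval -0.08 to 0.06) and FC30 minus CC30 was -0.03 (interval -0.15 to 0.08). Its relative Bhlhe40 (DEC1) was 0.16 higher in FC12 than in FC24 mice (SE 0.043, adjusted p = 0.0555), with 7.89, 7.98 and 8.20 against 7.70, 7.86 and 7.95, and was not called in the other 3 dark comparisons, at 0.09, 0.09 and 0.02.

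Errfi1 was at 9.40, 9.58 and 9.65 in CC12 mice, against 9.26, 9.38 and 9.58 in CC30 mice and 9.22, 9.37 and 9.48 in CC4 mice. In FC12 mice it was at 9.47, 9.57 and 9.63, against 9.28, 9.37 and 9.48 in FC24 mice and 9.35, 9.43 and 9.56 in FC4 mice. Between 4 and 8 of the 9 dark phase mice lay above every light phase mouse in these comparisons. The rises were 0.17 (SE 0.041, adjusted p = 0.0358), 0.20 (SE 0.044, adjusted p = 0.0150), 0.18 (SE 0.032, adjusted p = 0.00475) and 0.12 (SE 0.031, adjusted p = 0.0488) in the same order of comparisons as for Bhlhe41. FC12 and CC12 mice differed by 0.00 (95% interval -0.07 to 0.07). The differences of Errfi1 at 30 min were 0.16 in FC30 and 0.14 in RT30 mice, and neither passed the adjusted test.

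Ptgs2, whose enzyme makes prostaglandins, was lower in the dark. It was at 8.51, 8.63 and 8.76 in CC12 mice, against 8.87, 8.90 and 9.17 in CC30 mice and 8.78, 9.03 and 9.21 in CC4 mice, and all 9 CC12 mice lay below every mouse of both light groups. In FC12 mice it was at 8.58, 8.75 and 8.90, against 8.79, 8.94 and 9.02 in FC24 mice and 8.89, 9.02 and 9.19 in FC4 mice. The log2 fold changes were -0.35 for CC12 against CC30 (SE 0.050, adjusted p = 0.00111), -0.38 for CC12 against CC4 (SE 0.052, adjusted p = 0.000332), -0.18 for FC12 against FC24 (SE 0.043, adjusted p = 0.0393) and -0.28 for FC12 against FC4 (SE 0.045, adjusted p = 0.00244). The CC12 level was thus 0.786 times that of CC30 and 0.770 times that of CC4 mice. Nptx2 was at 7.00, 7.28 and 7.45 in CC12 mice, against 7.36, 7.53 and 7.58 in CC30 mice and 7.32, 7.46 and 7.67 in CC4 mice, log2 fold changes of -0.23 (SE 0.054, adjusted p = 0.0333) and -0.21 (SE 0.055, adjusted p = 0.0440). In FC12 mice it was at 7.28, 7.36 and 7.62, against 7.45, 7.60 and 7.79 in FC4 mice, which differed by -0.21 (SE 0.052) at an adjusted p of 0.0358, and against 7.28, 7.48 and 7.58 in FC24 mice the difference of -0.03 was not called. The difference of the dark effects, trained minus untrained, was 0.19 for Nptx2 (95% interval 0.04 to 0.34) and 0.17 for Ptgs2 (interval 0.03 to 0.31), with an adjusted p of 1.00 for each, and 0% of probe sets were called in that test.

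**Figure D4:**
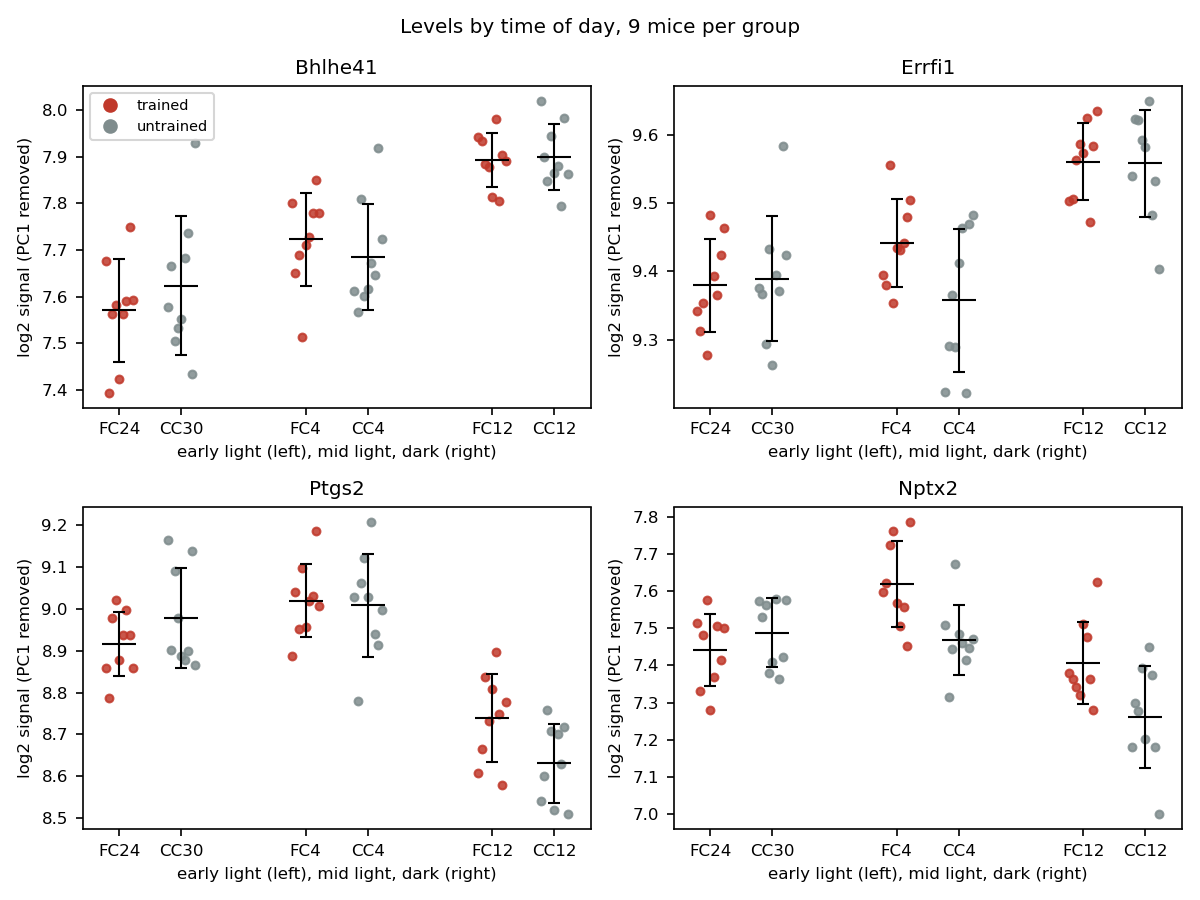
Log2 signal after removal of PC1 (y axis) of Bhlhe41, Errfi1, Ptgs2 and Nptx2 in each of 9 mice per group, with early light, mid light and dark groups from left to right (x axis); red points are trained and grey points untrained mice, and black bars are the mean ± SD. Bhlhe41 and Errfi1 are higher and Ptgs2 lower in the FC12 and CC12 mice, with Ptgs2 medians of 8.75 and 8.63.

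Pvr and Mcl1 each rose in 3 of the 4 dark comparisons. Pvr was at 6.83, 6.93 and 7.12 in CC12 mice, against 6.68, 6.74 and 6.93 in CC30 mice (0.20, SE 0.039, adjusted p = 0.00956) and 6.57, 6.80 and 7.01 in CC4 mice (0.18, SE 0.054, adjusted p = 0.0760). In FC12 mice it was at 6.66, 6.90 and 7.08, 0.21 above FC4 mice (SE 0.055, adjusted p = 0.0509), and 0.05 above FC24 mice, which was not called. The 3 comparisons with CC30 mice share their control, and Pvr was 0.20 higher in CC12, 0.20 higher in RT30 and 0.30 higher in FC30 mice. With no component removed Pvr was not called in CC12 against CC4 (adjusted p = 0.143) or in FC12 against FC4 (adjusted p = 0.107). Mcl1 was at 8.49, 8.57 and 8.62 in CC12 mice, against 8.30, 8.42 and 8.56 in CC30 mice (0.12, SE 0.032, adjusted p = 0.0525) and 8.38, 8.47 and 8.51 in CC4 mice (0.10, SE 0.026, adjusted p = 0.0512). In FC12 mice it was at 8.45, 8.54 and 8.59, against 8.32, 8.42 and 8.58 in FC24 mice (0.11, SE 0.032, adjusted p = 0.0783). With the replicate number as a block, these 3 Mcl1 calls were lost (adjusted p = 0.119, 0.199 and 0.231). Each was also lost in another setting. In the same order, these were the fit without arrays that lay apart (0.11), the single fit to all 8 groups (0.105) and no component removed (0.114).

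Besides Bhlhe40, 5 genes were called in 1 dark comparison each. Spry4 was at 7.26, 7.53 and 7.65 in CC12 mice, against 6.99, 7.14 and 7.31 in CC4 mice, a rise of 0.34 (SE 0.054, 1.27-fold, adjusted p = 0.00108), and its differences in the other 3 dark comparisons were 0.15, 0.14 and 0.17. Spry2, of the same family of inhibitors, moved the other way, with 7.18, 7.27 and 7.39 in CC12 mice, against 7.31, 7.41 and 7.54 in CC4 mice (-0.13, SE 0.035, adjusted p = 0.0419). Srf, the CArG box factor, was at 8.62, 8.69 and 8.90 in CC12 mice, against 8.47, 8.58 and 8.65 in CC4 mice (0.14, SE 0.040, adjusted p = 0.0533). Ier3, a stress-induced regulator of survival, was at 5.46, 5.59 and 5.72 in CC12 mice, against 5.25, 5.41 and 5.63 in CC30 mice (0.18, SE 0.051, adjusted p = 0.0818), a call kept in 6 of 12 alternatives. Rnd3 was at 6.27, 6.40 and 6.46 in FC12 mice, against 6.08, 6.21 and 6.45 in FC4 mice (0.16, SE 0.044, adjusted p = 0.0703).

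The untrained and the trained dark comparisons use separate mice. For CC12 against CC30 and FC12 against FC24, 24 of the 35 genes had the same sign, 4 were called in both (Ptgs2, Errfi1, Mcl1 and Bhlhe41), and the Pearson r over the 35 genes was 0.76. Of all probe sets, 63.2% had the same sign and 1.31% were called in both in the same direction. For CC12 against CC4 and FC12 against FC4, 27 had the same sign, 5 were called in both (Nptx2, Ptgs2, Errfi1, Pvr and Bhlhe41), and r was 0.83, beside 63% of all probe sets with the same sign and 1.9% called in both. The remaining pairings that share no mice gave 24 genes of the same sign, 5 called in both and r of 0.75 for CC12 against CC30 with FC12 against FC4, and 21, 4 and 0.66 for CC12 against CC4 with FC12 against FC24. There 1.23% and 1.44% of all probe sets were called in both, and 62.1% and 60.1% had the same sign. These values describe genes that are not independent of each other, and every pair shares the RMA and PC1 steps. Of the 31 other activity-induced genes, 6 were higher and 1, Bdnf, lower in CC12 against CC30 mice, and 4 higher in FC12 against FC24 mice.

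**Figure D5:**
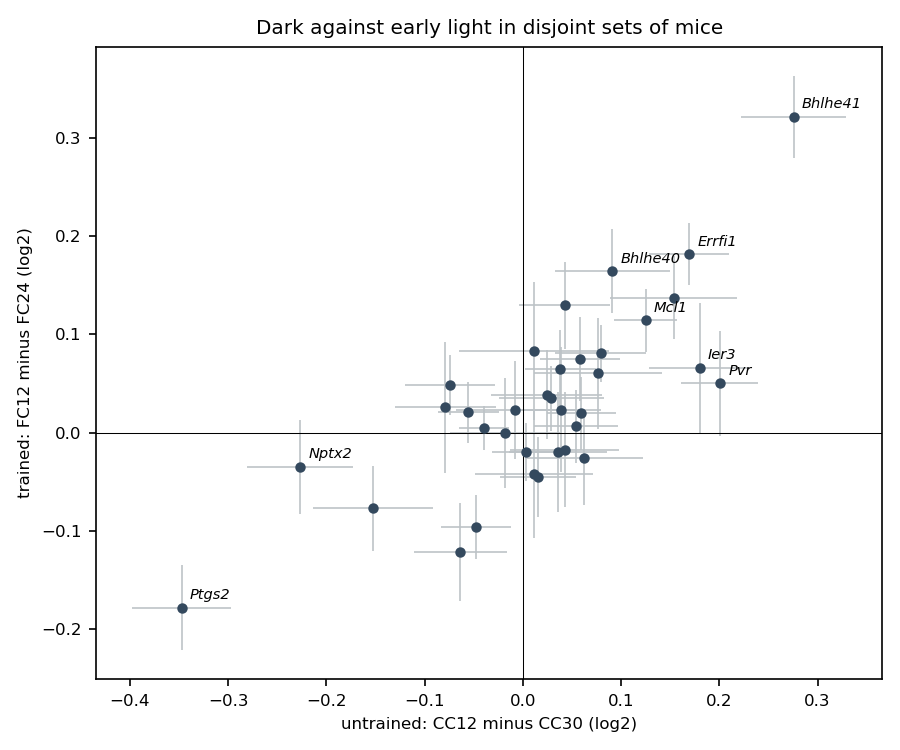
Log2 fold change of FC12 against FC24 mice (y axis) plotted against that of CC12 against CC30 mice (x axis) for the 35 genes, with SE bars; names mark genes called in either comparison. Bhlhe41 (0.32 and 0.28) and Ptgs2 (-0.18 and -0.35) lie at opposite ends.

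Markers of other cells also differed between dark and light mice. Of 40 markers, 4 were lower in CC12 than in CC30 mice: Opalin of oligodendrocytes (-0.62), Cx3cr1 of microglia (-0.25), C1ql2 of dentate granule cells (-0.25) and Pecam1 of endothelium (-0.17). The mean of the 3 oligodendrocyte markers ran from 8.41 to 8.94 in CC12 mice and from 8.97 to 9.14 in CC30 mice, with no overlap. That of the 5 microglia markers ran from 7.44 to 7.65 in CC12 and from 7.54 to 7.67 in CC30 mice. That of the 4 endothelial markers ran from 7.98 to 8.16 in CC12 and from 8.03 to 8.24 in CC30 mice. That of the 3 dentate granule markers, C1ql2 among them, ran from 8.32 to 8.56 in CC12 and from 8.21 to 8.68 in CC30 mice. Within each of these 4 lists only the gene named above was called. The median log2 fold changes in CC12 against CC30 mice were -0.12 for oligodendrocytes and -0.05 for microglia. They were -0.11 for endothelium and -0.00 for dentate granule cells. In FC12 against FC24 mice Opalin was lower (-0.48), as was Cldn5 (-0.18), while Prox1 (0.20) and Dsp (0.47) of dentate granule cells were higher. The median log2 fold change of the whole list was -0.02 for oligodendrocytes, -0.11 for endothelium and 0.20 for dentate granule cells. In FC12 against FC4 mice Opalin (-0.52), Pecam1 (-0.23) and Aqp4 of astrocytes (-0.13) were lower and Prox1 higher (0.18). The list medians were -0.01 for oligodendrocytes, 0.01 for endothelium, -0.09 for astrocytes and 0.17 for dentate granule cells. In CC12 against CC4 mice Opalin (-0.70) and Cx3cr1 (-0.20) were lower and Alas2 of blood cells higher (0.34). The list medians were -0.17 for oligodendrocytes and -0.04 for microglia. The part of these markers in the dark phase values was not tested. On PC1 or PC2, 6 arrays lay apart from their groups, 1 in each of FC30, FC12, FC24, CC30, CC4 and CC12. Without them Ier3, Errfi1 and Mcl1 in CC12 against CC30, Srf in CC12 against CC4, and Ptgs2 and Bhlhe40 in FC12 against FC24 were no longer called, and no direction changed.

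The other 22 of the 35 genes were called in none of the 13 pairwise comparisons. They were Homer1, Vgf, Pim1, Ier2, Ier5, Maff, Cebpb, Trib1, Plk2, Plk3, Inhba, Rgs2, Sertad1, Kdm6b, Midn, Fbxo33, Gem, Peli1, Amigo3, Zfp36, Nrn1 and Rasgrp1. Of these, 4 were called under some alternatives. Kdm6b passed as higher in FC30 than in FC24 mice with PC1 found on within-group residuals (adjusted p = 0.062) and in the single fit to all 8 groups (adjusted p = 0.0419). In that single fit Inhba was lower in CC12 than in CC30 mice (adjusted p = 0.0716), Midn was higher in CC12 than in CC4 mice (adjusted p = 0.0617), and Homer1 was lower in CC4 than in CC30 mice (adjusted p = 0.0995) and in FC12 than in FC24 mice (adjusted p = 0.0758). Rasgrp1, an exchange factor for RAS, had values between -0.04 and 0.03 over the 13 comparisons. Gem, Ier2 and Maff had low mean signals of 4.2, 4.3 and 4.4, at percentiles 26, 27.5 and 28.5 of all probe sets. Whether a low signal hid a change in them was not tested. Inhba differed by -0.16 between CC4 and CC30 mice (SE 0.045, adjusted p = 0.446) and by -0.15 between CC12 and CC30 mice (SE 0.061, adjusted p = 0.257). Trib1, a pseudokinase that brings a ubiquitin ligase to its targets, had differences of 0.16 in FC30 and 0.11 in RT30 mice, with SD of 0.19 in FC30 and 0.17 in CC30 mice.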

How the data were processed

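Hippocampal RNA of 72 mice was hybridised to whole-transcript arrays. The values deposited are log2 signals that the authors made with RMA in Affymetrix Power Tools, for 35556 probe sets with 0 missing values. Signal per array, not read depth, applies here, and the 9 arrays per group limit the precision (median SE of a log2 fold change 0.050 for FC30 against CC30). Replicates are separate mice.

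PC1 (17.4% of the variance), from a singular value decomposition of values centred on each probe set over all arrays, was subtracted. The study's methods also removed the first component, after a standardisation of the values. The paper reports a larger share of the variance for its first component than the 17.4% here. The 2 decompositions therefore differ, and the components need not be the same. Pairs of groups were fitted with limma 3.58.1 in R 4.3.3 on their own arrays (13 comparisons), and 3 interaction terms on 36 arrays. Benjamini-Hochberg adjustment ran over all probe sets, and the fit was tested on simulated data. The local false discovery rates of the methods were not run. In all, 12 alternative settings were run. All genes called in at least 1 pairwise comparison are given with group values. The members, the list of 31 other activity-induced genes and the markers (40 of 46 matched) were chosen with earlier results of these data known. Symbols came from the platform annotation and promoters from RefSeq (GRCm38.p6). The genome build of the array annotation is not given in the sources used here. Python 3.11.15 with pandas 2.3.3, numpy 2.4.6 and matplotlib 3.10.9 made summaries and figures.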

Additional observations from a re-analysis of the deposited data

Results flagged for a closer look

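Of 104 gene and group combinations of the genes called at least once, 4 had 1 mouse far from the other 8, and chance flags about 1 in 20. They were Csrnp1 at 6.05 in FC12 replicate 2 (group median 6.20), Pvr at 6.93 in CC30 replicate 8 (median 6.74), Mcl1 at 8.58 in FC24 replicate 2 (median 8.42) and Srf at 8.90 in CC12 replicate 6 (median 8.69). After removal of PC1, all 9 FC30 mice lay above this CC30 mouse in Pvr. The effect of training on Pvr differed between time points by the interaction test, by 0.40 between 30 min and 4 h and by 0.38 between 30 min and 12 h.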

How the results depend on the processing

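The 34 calls of single genes were recomputed under 12 alternatives: of 408 values, 377 stayed past the threshold, 31 fell short of it and 0 changed direction. The following counts of the 35 genes called higher moved by over 1.5 times. FC30 against CC30 had 1 in place of 2 with the equal variance test. RT30 against CC30 had 2 in the single fit to all 8 groups. RT30 against FC24 had 1 in the single fit, with a PC1 covariate, with PC1 found on within-group residuals, an intensity trend with robust estimation, or only probe sets with 1 symbol. FC30 against FC24 had 1 with no component removed and 4 with PC1 from residuals or the single fit. CC12 against CC30 had 2 without the 6 arrays that lay apart, and FC12 against FC24 had 2 with no component removed. The FC30 minus FC4 interaction had 2 in the single fit. Of genes called lower, CC4 against CC30 had 1, FC12 against FC24 had 2 (Homer1 joined in both) and CC12 against CC30 had 3 in place of 2 (Inhba) in the single fit, and FC12 against FC24 had 0 without the arrays that lay apart. Among smaller moves, FC12 against FC4 had 6 higher in place of 4 without the dimmest probe sets or with only probe sets of 1 symbol (Spry4 and Srf joined), and Spry4 joined FC12 against FC24 under 4 settings. The causes were not tested. Over all probe sets, calls ranged from 43 to 327 for FC30 against CC30 (91 reported), 47 to 149 for RT30 (99), 48 to 101 for RT30 against FC24 (54), 19 to 808 for FC30 against FC24 (54), 705 to 1543 for CC12 against CC30 (1243), 1231 to 2862 for CC12 against CC4 (1782), 0 to 108 for CC4 against CC30 (26), 723 to 2023 for FC12 against FC24 (1136) and 927 to 1933 for FC12 against FC4 (1500). RT30 against FC30 reached 165 and FC4 against CC4 reached 2, each with 0 reported. The interactions ranged from 15 to 25 (16) and 25 to 60 (31).

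Deviations of same-numbered mice correlated between -0.18 and 0.38, with at most 3 of 9 pairs over 0.1 in a comparison. In FC4 against CC4, 4 of 9 FC4 mice correlated most with the CC4 mouse of their own number, and 3 of 9 in RT30 against FC24. The paper states that the 9 mice of a group came from 9 separate experiments. The sample labels do not say whether the replicate numbers name these experiments, so pairing was not settled. With the replicate number as a block, 13 of the 34 calls were lost and 21 kept. Those lost were Csrnp1 in FC30 against CC30 (adjusted p = 0.225), Pvr in RT30 against CC30 (0.141) and FC30 against FC24 (0.317), Nptx2, Ier3, Errfi1 and Mcl1 in CC12 against CC30 (0.112 to 0.165), Spry2, Pvr, Mcl1 and Srf in CC12 against CC4 (0.113 to 0.199), and Bhlhe40 and Mcl1 in FC12 against FC24 (0.165 and 0.231). Pvr in FC30 against CC30 was kept (0.00489). Genes called higher were then 1 in FC30 against CC30, 0 in RT30 against CC30, 1 in FC30 against FC24, 2 in CC12 against CC30, 3 in CC12 against CC4 and 2 in FC12 against FC24, and 1 was lower in CC12 against CC30.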
